A study of Caenorhabditis elegans with 24 samples.

Results

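Oxidative phosphorylation was followed in *C. elegans* embryos through 10 nuclear genes of its protein complexes, chosen by name from a table of 20687 worm genes. They were gas-1 of complex I, isp-1 and cyc-1 of complex III, cox-4 and cox-5B of complex IV, and atp-1 to atp-5 of complex V, the ATP synthase. All 10 were found in the table, and all 10 passed the filter on low counts that left 8279 genes to test. The genes were listed by name, and no threshold on a measured value entered the rule. They and all other gene lists were, however, chosen with earlier results of these data known.

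All libraries came from embryos of the strain N2, cut from adult worms and staged at 60, 120, 180, 225, 270, 330, 410 or 500 min after the 4-cell stage, with no treatment or mutation named. Each stage had 3 libraries, each made from 50 whole embryos. Total RNA was taken with TRIzol and read by CEL-Seq, a method that tags messenger RNA at its 3′ end, so that 1 transcript gives 1 count whatever its length. Nothing in the labels says whether the libraries of a stage came from separate sets of parents, so the p-values measure the spread between these libraries.

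Oxidative phosphorylation takes place in the inner mitochondrial membrane. Complexes I to IV pass electrons from NADH and succinate to oxygen and most of them pump protons across the membrane, and complex V uses the returning protons to make ATP. Most subunits are encoded in the nucleus and imported, and a few core subunits are encoded by the mitochondrial genome itself. The early worm embryo starts with maternal messenger RNA and mitochondria from the oocyte.

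Worm counts per library ranged from 172620 to 977908, and 1 count corresponded to 0.889 to 6.08 CPM (counts per 1000000, with library sizes scaled by TMM factors of 0.78 to 1.17). Early blastomere markers (pes-10, end-1, end-3 and nos-2) summed to 1155–1216 CPM in the first stage and 4.59–6.95 CPM in the last, and summed body wall muscle markers (myo-3, unc-54, unc-15 and tni-1) to 12–143 and 3859–5095 CPM. Summed vitellogenin genes, whose yolk proteins are made in the adult intestine, varied from 0 to 1229 CPM over all libraries, and also within stages, as from 0 to 1151 CPM at 330 min. They were highest at 60 min replicate 1, 330 min replicate 2, 120 min replicate 1 and 500 min replicate 2. No library exceeded 1023 counts for any gene. Of the 10 genes, 5 (atp-1, atp-2, atp-3, atp-4 and cox-4) exceeded 500 counts in at least 1 library, where a shared ceiling compresses differences. In whole embryos, fewer cells of a type and less RNA per cell cannot be told apart.

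The genes were matched by sequence name to the WBcel235 annotation, since the build that the authors counted on is not given in the sources used here. In that annotation gas-1 (K09A9.5) lies on chromosome X from 15586786 to 15590397, isp-1 (F42G8.12) on chromosome IV from 8134016 to 8136055, and cyc-1 (C54G4.8) on chromosome I from 8022674 to 8024422. The oxidase genes cox-4 (W09C5.8) and cox-5B (F26E4.9) both lie on chromosome I, from 13658171 to 13659128 and from 9788725 to 9790050. Of the ATP synthase genes, atp-1 (H28O16.1) and atp-3 (F27C1.7) lie on chromosome I, from 12652277 to 12654655 and from 5428533 to 5429908. The gene atp-2 (C34E10.6) lies on chromosome III from 5228417 to 5230536, and atp-4 (T05H4.12) and atp-5 (C06H2.1) lie on chromosome V, from 6426246 to 6427112 and from 11122901 to 11123867. The last base of 3 of them is shared with another protein-coding gene. This holds for atp-4 with T05H4.11 on the same strand (16 bases), cyc-1 with C54G4.7 on the opposite strand (61 bases) and gas-1 with K09A9.6 on the opposite strand (26 bases). Whether counting used strand is not given in the sources used here, so the levels of these 3 genes are uncertain to that extent.

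Most of the 10 genes were high at 60 min, lowest at 180 or 225 min, and higher again at 500 min. In a quasi-likelihood F test (edgeR) across all 8 stages, 9 of 10 changed, against 91.6% of all tested genes, and cox-4 did not (adjusted p = 0.108). Most of these 9 calls were lost under spike-in scaling, where 5815 of 8279 tested genes were still called. Their ranges over the stages were below the median range of tested genes, a comparison not matched for level. By mean CPM the genes stood at percentile 70.9 (gas-1) and 91.3 to 99.4 (the others) among tested genes. From the lowest to the highest stage mean, the range was 0.56 on the log2(CPM + 1) scale for cox-4, 0.75 for both cox-5B and cyc-1, 1.03 to 1.36 for the ATP synthase genes and isp-1, and 1.90 for gas-1, whereas the median over tested genes was 2.91. Stage means were lowest at 225 min for 6 genes (atp-3, atp-4, atp-5, cox-4, cox-5B and isp-1), at 180 min for atp-1, atp-2 and cyc-1, and at 60 min for gas-1.

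**Figure D1:**
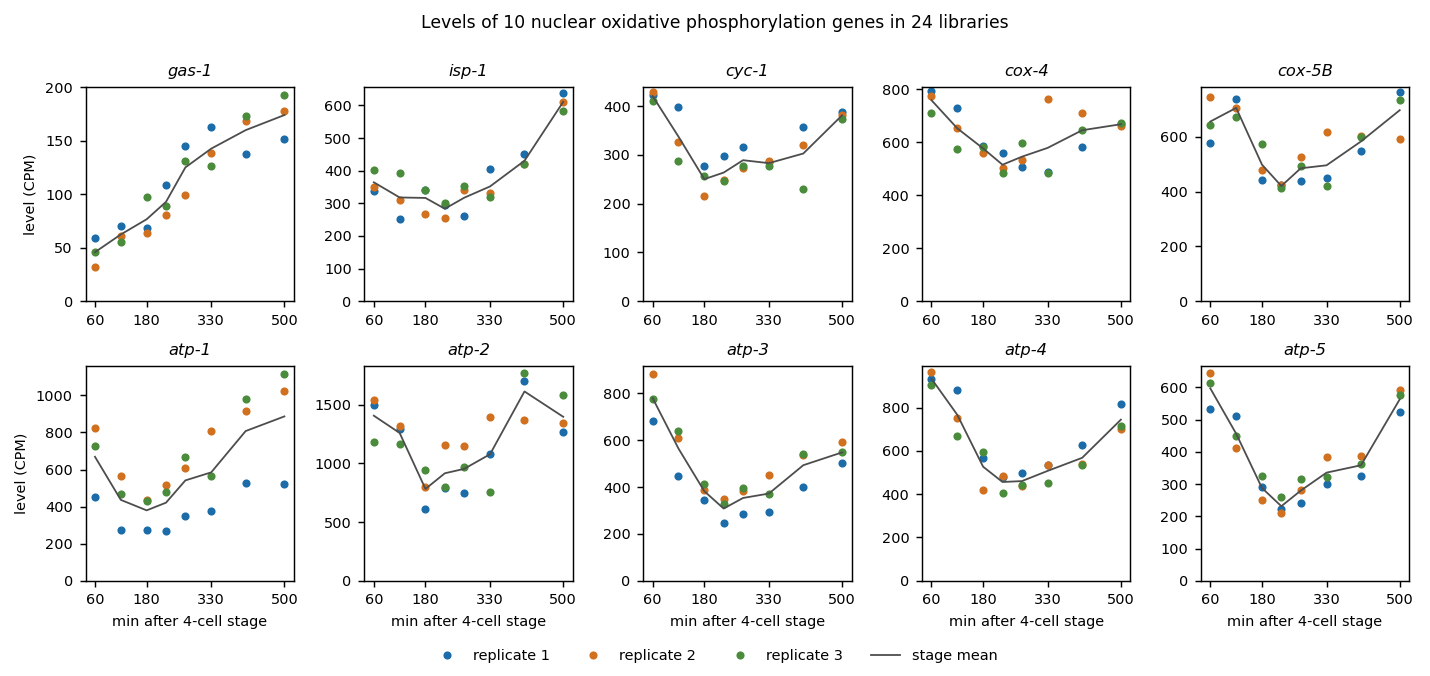
Levels in CPM (y axes, each from 0) against time in min after the 4-cell stage (x axes) for the 10 genes; each point is 1 library, coloured by replicate, and lines join the stage means of 3 libraries. In 9 panels the line falls to its lowest point at 180 or 225 min and rises after it, whereas the gas-1 line starts at 45.8 CPM and ends at 174 CPM.

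The gene gas-1, which encodes a core subunit of complex I, rose through the series. Its levels were 59.1, 32.1 and 46.3 CPM in the 3 libraries at 60 min, 70.4, 61.4 and 55.4 CPM at 120 min, 68.1, 63.9 and 97.7 CPM at 180 min, and 108, 81 and 89.1 CPM at 225 min. They were 145, 99.5 and 131 CPM at 270 min, 163, 138 and 126 CPM at 330 min, 138, 169 and 173 CPM at 410 min, and 152, 178 and 192 CPM at 500 min. Every library at 225 min or later exceeded every library at 60 min, while the libraries of each adjacent pair of stages overlapped. The mean was 45.8 ± 13.5 CPM in the first stage and 174 ± 20.5 CPM in the last (SD, n = 3), a log2 change of 1.97 (SE 0.25, adjusted p = 9.76e-09). This change passed the threshold under all 15 alternative settings, with log2 values from 1.54 to 2.13. None of the 7 adjacent steps passed for gas-1. The counts behind these levels were low, 12 to 142 per library.

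In complex III, isp-1 encodes the Rieske iron-sulfur protein and cyc-1 encodes cytochrome c1. The levels of isp-1 were 339, 351 and 404 CPM at 60 min, 294, 255 and 301 CPM at 225 min, 451.5, 419 and 421 CPM at 410 min, and 638, 611 and 584 CPM at 500 min. The 500 min libraries stood above all libraries of the other stages. From 60 to 500 min isp-1 rose by a log2 change of 0.74 (SE 0.19, adjusted p = 0.000576), but not under library size scaling (0.31, adjusted p = 0.126) or spike-in scaling (0.72, adjusted p = 0.245). The levels of cyc-1 were 423, 429 and 410 CPM at 60 min, 297, 248 and 246 CPM at 225 min, and 389, 381 and 373 CPM at 500 min. The 3 groups did not overlap, and the 500 min libraries stood between the others. Against 60 min, cyc-1 was lower at 225 min (log2 change −0.68, SE 0.18, adjusted p = 0.00188), and at 500 min its change of −0.14 did not pass (95% interval −0.53 to 0.24).

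In complex IV, cox-4 and cox-5B encode nuclear subunits of cytochrome c oxidase, the enzyme that hands electrons to oxygen. The levels of cox-4 were 793, 772 and 708.5 CPM at 60 min, 560, 501 and 484 CPM at 225 min, and 668, 661 and 672 CPM at 500 min. At 330 min its libraries were at 486, 763 and 485 CPM, and replicate 2, the high one, was among the 4 with the most vitellogenin. That library was the highest of its stage for most of the 10 genes, and a link to vitellogenin was not tested. The levels of cox-5B were 578.5, 746 and 644 CPM at 60 min, 423, 424.5 and 414 CPM at 225 min, and 766, 592 and 735 CPM at 500 min. For cox-5B the 60 and 500 min libraries overlapped, and all of them stood above those at 225 min. Neither gene changed from 60 to 500 min by the test (log2 changes of −0.18 and 0.08), and the value for cox-5B turned negative under library size scaling (−0.35, adjusted p = 0.0591).

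The ATP synthase consists of a catalytic head, made mainly of the α and β subunits, a membrane part, and stalks that join them. The β subunit gene atp-2 was the most abundant of the 10 at every stage. Its levels were 1496, 1538 and 1184 CPM at 60 min, 611, 795.5 and 940 CPM at 180 min, 794, 1156 and 796 CPM at 225 min, 1699, 1369 and 1769 CPM at 410 min, and 1264, 1347 and 1578 CPM at 500 min. The 180 min libraries stood below all those at 60, 120, 410 and 500 min. Because atp-2 reached 880 counts in a library, the ceiling bears on it most. After correction for identifier collisions, assuming identifiers of 5 bases, its stage means at 60, 180 and 500 min were 2071, 836 and 1842 CPM, where the uncorrected means were 1406, 782 and 1396 CPM.

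The α subunit gene atp-1 was at 454, 826 and 726.5 CPM at 60 min, 269, 518 and 477 CPM at 225 min, and 523, 1022 and 1115 CPM at 500 min. In each stage the replicate 1 library was the lowest. The libraries of 60 and 500 min overlapped, and the change between them (log2 0.42, SE 0.34, adjusted p = 0.263) did not pass, nor did it without replicate 1 (0.39, adjusted p = 0.121). With the replicate number as a block in the edgeR fit, this change passed (0.39, adjusted p = 0.0319). Replicate 1 was below the stage mean in 8 of 8 stages for atp-1, by a mean of 0.56 on the log2(CPM + 1) scale (mean deviation −0.56), and in 8 of 8 for atp-3 (−0.25), but in 0 of 8 for atp-4 (0.11) and cyc-1 (0.13). What moved with replicate 1 was not tested.

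The remaining ATP synthase genes encode stalk subunits: atp-3 the oligomycin sensitivity-conferring protein, atp-4 coupling factor 6 and atp-5 subunit d. The levels of atp-3 were 681, 884 and 774 CPM at 60 min, 248, 348 and 328 CPM at 225 min, and 504, 591 and 549 CPM at 500 min. Of the 10 it alone was called lower at 500 than at 60 min (log2 change −0.50, SE 0.20, adjusted p = 0.0226), with no overlap of libraries, and the call was lost without the replicate 2 libraries (−0.50, adjusted p = 0.107) or the replicate 3 libraries (−0.59, adjusted p = 0.0609), and under spike-in scaling (−0.45, adjusted p = 0.463). The levels of atp-4 were 933, 962 and 903 CPM at 60 min, 479, 486 and 403 CPM at 225 min, and 814, 701 and 716 CPM at 500 min. Its 500 min libraries stood below the 60 min ones, but the change (−0.33, SE 0.18) did not pass. The levels of atp-5 were 532, 644 and 614 CPM at 60 min, 510, 411 and 448 CPM at 120 min, 290, 249 and 324 CPM at 180 min, 224, 211 and 259 CPM at 225 min, 326, 386 and 363 CPM at 410 min, and 523, 591 and 575 CPM at 500 min. The 60 and 500 min libraries of atp-5 overlapped, and all other stages listed lay below both.

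From the first stage to the last, therefore, 2 of the 10 genes rose (gas-1 and isp-1), 1 fell (atp-3) and 7 did not pass, where 79.3% of all tested genes passed, 46.1% higher and 33.2% lower. The libraries of the 2 stages did not overlap for 6 of 10, against 79.2% of tested genes. The median log2 change of the 10 was −0.04, against 0.47 over tested genes. Scaling by library size alone turned the split to 1 higher (gas-1) and 6 lower, where 3386 of all tested genes were higher and 3249 lower. Correction for identifier collisions turned it to 2 higher and 3 lower. There, 6647 of 8340 tested genes were called, 3677 of them higher.

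The fall and the later rise were then compared with the 225 min stage, a comparison chosen after the stage means were seen. Against 60 min, 7 of the 10 genes were lower at 225 min and 1, gas-1, was higher, where 56.1% of tested genes changed, 26.6% lower and 29.5% higher. The lower genes were atp-5 (log2 change −1.36, SE 0.19, adjusted p = 1e-07), atp-3 (−1.33), atp-4 (−1.04), cyc-1 (−0.68), cox-5B (−0.64), atp-2 (−0.62) and cox-4 (−0.56), and the values of atp-1 (−0.66) and isp-1 (−0.37) did not pass. With the replicate number as a block in the edgeR fit, atp-1 was also called lower (−0.67, adjusted p = 0.000854). From 225 to 500 min, 9 of 10 genes rose, where 65.8% of tested genes changed and 37.4% rose, and cox-4 (0.38, adjusted p = 0.0792) did not pass. The largest rises were of atp-5 (1.28, SE 0.19, adjusted p = 2.07e-07), isp-1 (1.1), atp-1 (1.08) and gas-1 (0.94). Libraries did not overlap for 9 of 10 genes in the first comparison (60.7% of tested genes) and for 10 of 10 in the second (68.6%). Scaling to the spike-in RNAs left 0 of these calls in either comparison, with every sign kept. That setting still called 2816 of 8279 tested genes in the first comparison and 3640 in the second. Scaling by library size alone left 2 of the 9 rises (atp-5 and isp-1), where 2516 of 8279 tested genes were called higher. Without the replicate 2 libraries, cox-4 and cox-5B were no longer called lower at 225 min (−0.54 and −0.57, adjusted p = 0.0746 and 0.0655), nor was atp-2 without replicate 1 (−0.53, adjusted p = 0.11). Of the 9 rises, 8 were called without replicate 1 (not atp-2), 7 without replicate 2 (not atp-1 and cyc-1) and 6 without replicate 3 (not atp-1, atp-2 and cyc-1). Over all tested genes, 3441 of 8938, 2624 of 8160 and 2721 of 8162 were called higher in these fits.

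**Figure D2:**
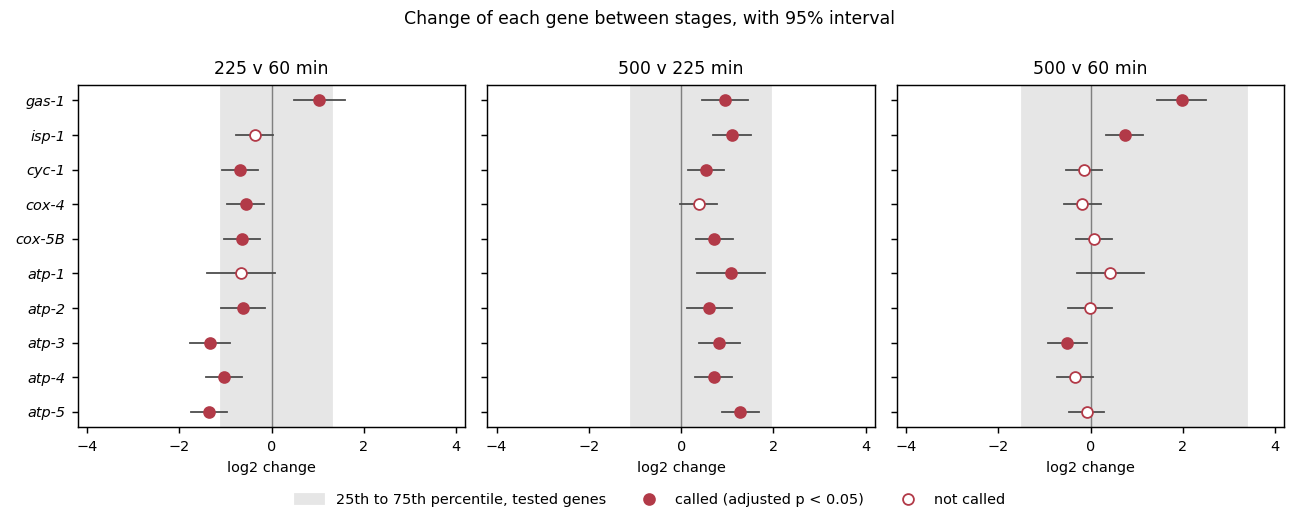
Log2 change of each of the 10 genes (rows) between the stages named above each panel (x axes, 0 marked by a line), with 95% intervals from the fit to 24 libraries; filled points passed an adjusted p of 0.05 and the grey band spans the 25th to 75th percentile of all tested genes. At 225 min 7 genes are called lower and gas-1 higher, from 225 to 500 min 9 are called higher, and from 60 to 500 min 3 are called.

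The steps between neighbouring stages placed part of the fall between 120 and 180 min. In that step 4 genes fell, all of the ATP synthase, where 17.4% of tested genes changed and 9.22% fell: atp-2 (log2 change −0.69, SE 0.23, adjusted p = 0.0325), atp-5 (−0.66, adjusted p = 0.00951), atp-3 (−0.58, adjusted p = 0.0461) and atp-4 (−0.54, adjusted p = 0.0394). Libraries did not overlap for 6 of 10, against 30% of tested genes: these 4 and cox-5B (−0.50, adjusted p = 0.0622) and cyc-1 (−0.42, adjusted p = 0.135), neither of which passed. Of the alternatives, these calls passed 6 of 14 (atp-4), 7 of 14 (atp-3), 10 of 14 (atp-2) and 11 of 15 (atp-5). Leaving out all replicate 2 libraries left 0 calls, where 819 of 8160 tested genes were called. Leaving out replicate 1 left 1 (atp-3), where 1363 of 8938 were called, and leaving out replicate 3 left 1 (atp-2), where 655 of 8162 were called.

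In the step from 60 to 120 min edgeR called 0 of the 10 genes, where it called 43.6% of tested genes. At an unadjusted p below 0.05 there were 2 (atp-3 and atp-5), and DESeq2 called 4 as lower (atp-3, atp-4, atp-5 and cyc-1). Libraries did not overlap for 4 of 10, against 50.1% of tested genes. In each of the steps to 225, 270 and 330 min edgeR and DESeq2 both called 0. Over all tested genes edgeR called 5.64% in the first of these steps, 8.2% as higher and 4.11% as lower in the second, and 7.66% in the third. At an unadjusted p below 0.05, edgeR had 0 genes in each of the 3 steps and DESeq2 had 0, 1 and 0. From 330 to 410 min atp-2 rose (0.59, SE 0.23, adjusted p = 0.0476), where 30% of tested genes changed, although its libraries overlapped. The call was lost in 8 of 14 alternatives, among them collision correction (0.32, adjusted p = 0.372), without replicate 1 (0.52, adjusted p = 0.182), without replicate 3 (0.34, adjusted p = 0.447), and without the single library 270 min replicate 3 (0.56, adjusted p = 0.0594). From 410 to 500 min atp-5 rose (0.66, SE 0.19, adjusted p = 0.00781), where 21.9% of tested genes changed, with no overlap of libraries. This call was lost without replicate 2 (0.68, adjusted p = 0.0944), without replicate 3 (0.66, adjusted p = 0.0827), under spike-in scaling (0.58, adjusted p = 0.822) and with no filter on low counts (0.56, adjusted p = 0.0791).

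The 10 genes were set beside the other nuclear subunits of complexes I to V, of which 66 were listed and 64 tested. From 60 to 120 min, 37 of the 64 fell and 2 rose, where 20.1% of tested genes fell and 23.6% rose, whereas the 10 genes had 0 calls in this fit. That 0 depended on the setting. DESeq2 called 4 of the 10 lower, where it called 3518 of 10047 tested genes. Several other alternatives also called some of the 10 lower. Complex I gave the largest number, with 23 of 33 lower and a median log2 change of −0.74, while the median of tested genes was 0. Complex II had 3 of 5 lower, complex III with cytochrome c 4 of 12, complex IV 1 of 7 and complex V 6 of 17. All these numbers per complex, and the complex I median, include those of the 10 genes that belong to the complex. The median was −0.63 for the 64 and −0.26 for the 10 genes. The difference between the 10 genes and the others was not tested. Spike-in scaling left 6 calls among the 74 in this step, and over all tested genes it left 1304 of 3612.

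By 225 min, 44 of the 64 were lower than at 60 min and 0 were higher, so that of all 74 tested subunits 51 were lower and gas-1 alone was called higher, where 26.6% of tested genes were lower and 29.5% higher. From 225 to 500 min 64 of the 74 rose and 1, sdha-2, fell, where 37.4% of tested genes rose. From 60 to 500 min 19 of the 74 rose and 13 fell, with a median change of −0.0039, where 46.1% of tested genes rose and 33.2% fell. That last split turned to 10 higher and 36 lower under library size scaling, to 13 and 23 after collision correction, and to 11 and 21 with no filter on low counts. Of all tested genes called in these settings, 3386 of 6635, 3677 of 6647 and 5551 of 9018 were higher. In complex I, the largest called rises after gas-1 were of nuo-4 (1.24) and ndus-8 (1.17). The largest called falls in that complex were of nduf-2.2 (−5.06) and ndab-2 (−0.63). In complex V, R05D3.6 rose from 1.54 CPM, which rests on 2 counts, to 59.7 CPM, and asb-2 rose, while asb-1, asg-1 (−1.48, an ATP synthase subunit g gene) and hpo-18 (−0.76) fell. In complex III F45H10.2 fell (−0.56), and in complex IV cox-6C rose (0.56).

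**Figure D3:**
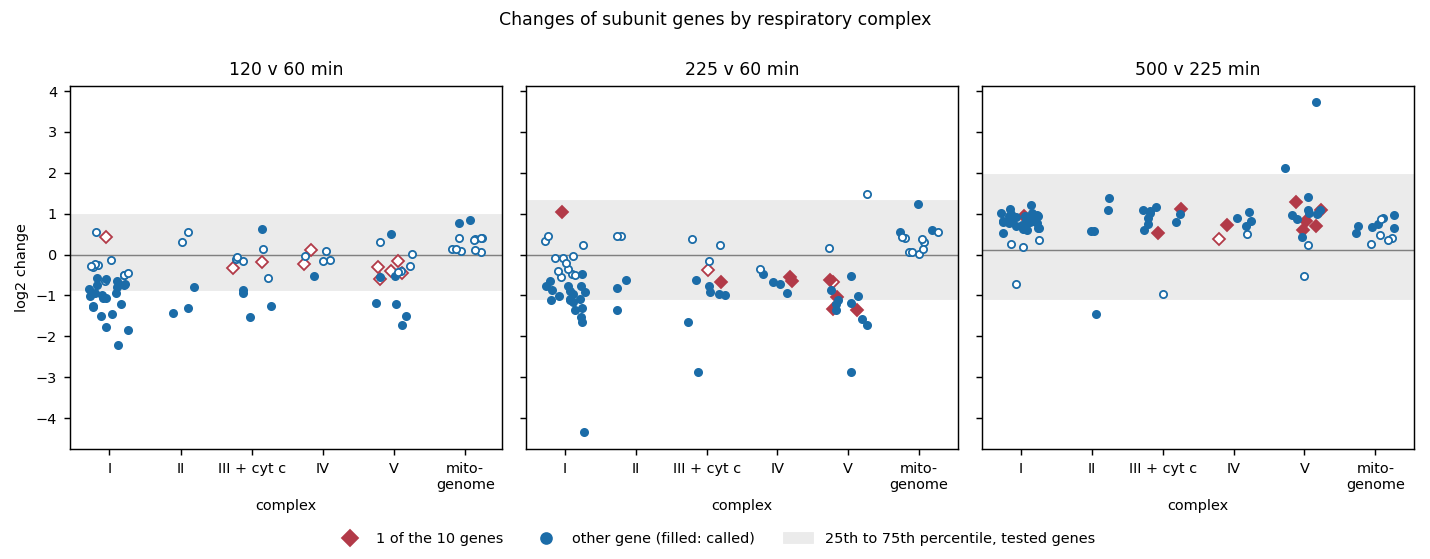
Log2 change (y axis) of each tested subunit gene by complex (x axis; cyt c, cytochrome c) in 3 comparisons; red diamonds are the 10 genes, blue circles other genes, filled symbols passed an adjusted p of 0.05, and the grey band spans the 25th to 75th percentile of all tested genes around their median line. At 120 min 23 of 33 complex I genes are called lower and all red diamonds are open, and from 225 to 500 min 64 of 74 nuclear subunits are called higher.

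Several subunits are encoded by paralogous genes, and in some of these sets the members moved in opposite directions from 60 to 500 min. The gene nduf-2.2, a paralog of gas-1, was at 62.2, 66.2 and 59.8 CPM at 60 min, 11.7, 8 and 17.9 CPM at 120 min, and 0, 0 and 4.64 CPM at 500 min. Its libraries stood above all those of gas-1 at 60 min and below all of them at every later stage. By 120 min nduf-2.2 had fallen (log2 change −2.2, SE 0.46, adjusted p = 0.000199), and at 500 min it had 2 counts in all, a mean of 1.55 CPM with a Poisson interval of 0.194 to 5.78 CPM for counting error. No test between genes was made, and whether reads of such copies were split between them was not tested.

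For subunit b of the ATP synthase, asb-1, known from other work as the germline form, had stage means of 264 ± 6.34, 82.3 ± 15.4 and 24.7 ± 15.7 CPM at 60, 120 and 500 min (SD, n = 3), a log2 change of −3.39 over the series (SE 0.35, adjusted p = 9.99e-11). Its partner asb-2 rose from 178 ± 22.3 CPM to 527 ± 7.8 CPM (1.56, SE 0.20, adjusted p = 8.32e-09). Among the genes for core protein 2 of complex III, ucr-2.3 fell from 140 ± 15.6 CPM to 8.69 ± 2.37 CPM (−3.86, SE 0.36, adjusted p = 6.13e-12). Over the same time ucr-2.1 rose from 142 to 281 CPM (0.98, adjusted p = 5.54e-05) and ucr-2.2 from 43.8 to 112 CPM (1.28, adjusted p = 9.27e-05). Under spike-in scaling most of these ucr-2 calls were lost, where 5290 of 8279 tested genes were called. In the first step asb-1 fell (−1.73, adjusted p = 1.65e-05), while ucr-2.3 stood at 152 CPM at 120 min (0.12, adjusted p = 0.732) and was down to 19.5 CPM at 225 min.

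The flavoprotein gene of complex II sdha-1 rose from 233 to 482 CPM (1.04, adjusted p = 4.45e-05), and its paralog sdha-2 fell from 28.8 to 14.5 CPM (−1.01, adjusted p = 0.0343). Neither sdha gene was called under spike-in scaling, and with DESeq2 they were not both called. Cytochrome c gene cyc-2.1 rose from 585 to 850 CPM (0.53, adjusted p = 0.0156), while cyc-2.2 had at most 4 counts in any stage and was not tested. The ATPase inhibitor gene mai-2 fell from 741 to 264 CPM by 120 min (−1.50, adjusted p = 5.35e-07), stood at 252 CPM at 225 min and was at 510 CPM at 500 min. Its paralog mai-1 was too low to test, with means of 18.3 and 8.67 CPM in the first and last stage.

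**Figure D4:**
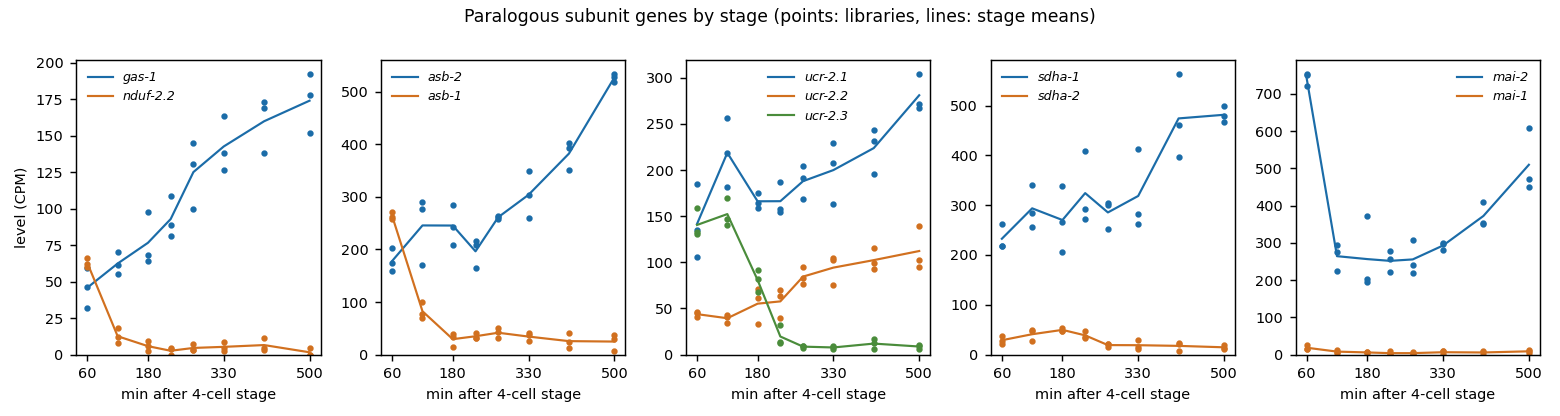
Levels in CPM (y axes, from 0) of 5 sets of paralogous subunit genes against min after the 4-cell stage (x axes); points are libraries and lines join the stage means of 3 libraries. The orange line of nduf-2.2 falls below that of gas-1 after 60 min, asb-1 below asb-2 after 60 min, and the green line of ucr-2.3 is at 152 CPM in the second stage and 19.5 CPM in the fourth.

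The 12 protein genes of the mitochondrial genome, which encode the partners of these nuclear subunits in complexes I, III, IV and V, did not share the low middle stages. All 12 rose from 60 to 500 min, where 46.1% of tested genes rose, with a median log2 change of 0.88. In the F test across all 8 stages, 8 of the 12 changed, against 91.6% of tested genes. At 225 min 3 were higher than at 60 min and 0 were lower, and their median was 0.40 against −0.65 for the 10 nuclear genes. The largest rises to 500 min were of MTCE.25 (1.88), MTCE.21 (1.51) and MTCE.35 (1.41). Divided by the summed CPM of the 10 nuclear genes, the summed mitochondrial-genome CPM was 1.19, 1.24 and 1.14 at 60 min, 3.06, 2.25 and 2.3 at 225 min, and 3.13, 1.81 and 1.85 at 500 min. Every later library exceeded the 60 min ones, and the 225 and 500 min libraries overlapped. After collision correction the ratio was 1.115 to 1.28 at 60 min and 2.1 to 3.52 at 500 min. The count of 12 rises fell to 5 under library size scaling, 4 under spike-in scaling, and 6 without replicate 1. Over all tested genes, 3386 of 8279, 3221 of 8279 and 4136 of 8938 were called higher in these settings. With genes over 500 counts left out, 1 of the 12 remained to be tested, and it was called.

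**Figure D5:**
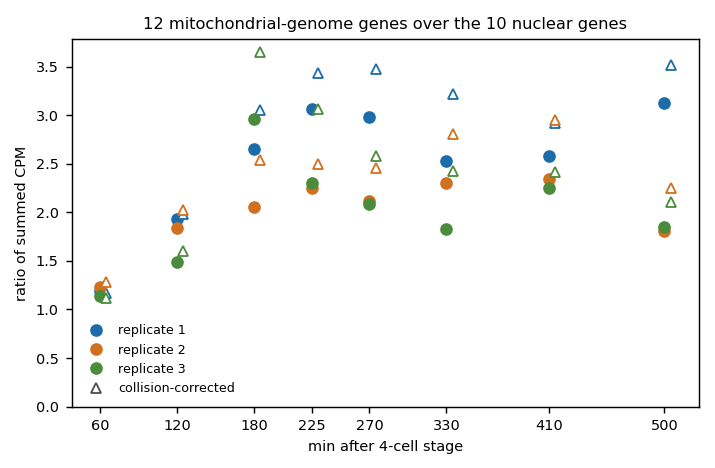
Ratio of the summed CPM of 12 mitochondrial-genome protein genes to that of the 10 nuclear genes (y axis, from 0) against min after the 4-cell stage (x axis); filled circles are libraries coloured by replicate, and open triangles, drawn slightly to the right, are the same libraries after collision correction. The 60 min libraries lie at 1.14 to 1.24, below all later ones.

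Other mitochondrial lists are given beside the share of all tested genes that rose from 60 to 500 min, 46.1%, and fell, 33.2%. Of 18 tricarboxylic acid cycle genes, a list that shares the succinate dehydrogenase genes other than sdha-2 with complex II, 11 fell from 60 to 120 min (median −0.91), where 20.1% of tested genes fell, and 16 rose from 225 to 500 min, where 37.4% rose. From 60 to 500 min 8 rose, led by sucg-1 (2.37), the aconitase gene aco-2 (2.13) and dlst-1 (1.52), and 2 fell, sucl-2 (−2.45) and suca-1 (−1.23). Of 14 tested assembly factor and coenzyme Q genes, 8 rose from 60 to 500 min, led by coq-1 (3.75), coq-3 (3.18) and coq-2 (2.32), and coq-4 fell (−1.32). The leading rises started near the floor, from means of 4.74 (coq-1), 6.74 (coq-3) and 10.7 CPM (coq-2) at 60 min. In the libraries of that stage 3 counts equal 4.48 to 9.33 CPM. The list of carrier, import and chaperone genes also holds hmg-5 and atfs-1. Among its 14 tested genes 7 rose, led by the chaperonin gene hsp-60 (2.45), the import channel gene tomm-40 (1.94) and the prohibitin gene phb-1 (1.94). Of this list hmg-5 fell (−1.26). The share that rose was near that of all tested genes for the cycle genes and for the carrier, import and chaperone genes. The median change of the 3 lists was 0.41, 1.11 and 0.62, against 0.47 over tested genes and −0.04 over the 10 genes.

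The stage profiles of the 10 genes were alike to differing degrees. Over the 8 stage means, on the log2(CPM + 1) scale, Pearson's r was highest between atp-3 and cox-4 (0.99) and between atp-3 and atp-4 (0.97), and lowest between atp-4 and gas-1 (−0.48). Among the 9 genes other than gas-1 it was lowest for atp-1 with atp-4 (0.39) and isp-1 with atp-4 (0.44), and gas-1 had its highest values with isp-1 (0.54) and atp-1 (0.52). Within stages, over 24 libraries, atp-3 and atp-4 had an r of −0.45 and atp-1 and atp-3 one of 0.93, which holds the replicate 1 deviation described above. Among 4377 genes with a mean of at least 50 CPM, the profiles most like the mean of the 10 over 8 stages were those of nex-1 (r = 0.971), dlc-1 (0.971), C16E9.2 (0.968), lron-7 (0.967) and Y38E10A.24 (0.967). Likeness in r does not mean likeness in size, since nex-1 had means of 273.7, 9.6 and 299.8 CPM at 60, 225 and 500 min. Most like atp-2, among 4386 genes, were ptr-2 (0.944), ZK829.7 (0.936), cox-5A (0.932), C16E9.2 (0.927) and gdi-1 (0.921).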

How the data were processed

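Gene counts of 24 CEL-Seq libraries were used as the authors deposited them, as whole-number counts per gene with no normalization; HTSeq is named in the submitters' processing notes, and its version, its role, the genome build and the use of strand were not stated in the sources at hand. The 10 genes and all gene lists were chosen with earlier results of these data known. The 92 spike-ins were kept out of worm library sizes. In R 4.3.3, edgeR 4.0.16 (filterByExpr with a minimum count of 10 and total of 15, TMM, robust quasi-likelihood fit of stage over all 24 libraries, with 16 residual degrees of freedom, limma 3.58.1 beneath) tested 8279 genes, with Benjamini-Hochberg adjustment over all of them and a threshold of 0.05; DESeq2 1.42.0 was an alternative. Scripts were tested on simulated data. CPM used TMM-scaled library sizes, and intervals of 95% on single counts cover counting error only. No count exceeded 1023, close to the 1024 forms of an identifier of 5 bases, which was assumed in the collision correction. Named genes outside the 10 were paralog sets, up to 3 called genes with the largest change from 60 to 500 min in the majority direction of each list and 2 in the other, where the higher stage mean reached 20 CPM, and the 5 profiles most like that of the 10 genes, or of atp-2, among genes averaging at least 50 CPM. Comparisons with 225 min, and counts over all nuclear subunits, were added after the data were seen.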

Additional observations from a re-analysis of the deposited data

How the results depend on the processing

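Of 1450 values of single genes under 15 alternatives, 1241 kept their direction and side of the threshold, 75 lost and 63 gained a call, and 71 changed sign, with 0 of these called in either fit. The rise of gas-1 from 60 to 500 min passed in all 15. Against the reported fit, the median log2 change of all genes shifted by −0.42 (500 v 60 min), −0.48 (500 v 225 min), −0.30 (410 v 330 min), −0.15 (500 v 410 min) and 0.10 (180 v 120 min) with library size alone. With spike-in scaling it shifted by −0.44 (410 v 330 min), 0.26 (330 v 270 min), 0.19 (225 v 60 min), 0.17 (180 v 120 min) and −0.14 (500 v 225 min), and with DESeq2 size factors by −0.22 (225 v 60 min), 0.21 (500 v 225 min), 0.13 (410 v 330 min) and −0.12 (120 v 60 min). Low counts limit gas-1 and the ceiling of 1023 limits atp-2. The causes of the changes below were not tested.

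With DESeq2 size factors in edgeR, 2 (120 v 60 min), 2 (410 v 330 min) and 2 (500 v 410 min) of the 10 genes were called. In the same order, 3632, 2494 and 1840 of 8279 tested genes were called. The sign turned for atp-2 0.0077 (500 v 60 min), cox-5B −0.013 (120 v 60 min) and cyc-1 0.023 (330 v 270 min). With library size alone, 7 (500 v 60 min), 2 (120 v 60 min), 2 (180 v 120 min), 0 (410 v 330 min) and 2 (500 v 225 min) of the 10 genes were called. Over all 8279 tested genes the numbers called were 6635, 3561, 1450, 3010 and 5710. There, 3 (complex IV), 14 (complex V) and 5 (mitochondrial genome) genes of the lists were called in 500 v 60 min. Nuclear subunits then gave 24 calls (500 v 225 min). Signs changed there for cox-5B −0.35 (500 v 60 min), isp-1 0.049 (180 v 120 min), cox-5B −0.032 (330 v 270 min), atp-4 −0.12, atp-5 −0.19, cox-5B −0.039, cox-4 −0.11, isp-1 −0.0019, cyc-1 −0.17 and gas-1 −0.13 (410 v 330 min), cox-4 −0.098 (500 v 410 min) and cox-4 −0.10 (500 v 225 min). With spike-in scaling, 1 (8 stages), 1 (500 v 60 min), 0 (180 v 120 min), 0 (410 v 330 min), 0 (500 v 410 min), 0 (225 v 60 min) and 0 (500 v 225 min) of the 10 genes were called. Calls among the 8279 tested genes were then 5815, 5290, 405, 931, 719, 2816 and 3640. There, 2 (complex I), 0 (complex II), 1 (complex III), 0 (complex IV), 4 (complex V), 4 (mitochondrial genome), 4 (tricarboxylic acid cycle) and 4 (carriers) genes of the lists were called in 500 v 60 min. Nuclear subunits then gave 7 (500 v 60 min), 6 (120 v 60 min), 7 (225 v 60 min) and 2 (500 v 225 min) calls. A changed sign was found for atp-2 0.14 (500 v 60 min), cox-5B −0.038 (120 v 60 min), cox-4 0.084 and isp-1 0.089 (180 v 120 min), cyc-1 0.24 (330 v 270 min), atp-4 −0.20, atp-5 −0.29, cox-5B −0.10, cox-4 −0.19, isp-1 −0.076, cyc-1 −0.33 and gas-1 −0.20 (410 v 330 min) and cox-4 −0.048 (500 v 410 min). With no filter on low counts, 2 (180 v 120 min), 0 (410 v 330 min) and 0 (500 v 410 min) of the 10 genes were called. That setting called 1378, 2800 and 2465 of 17522 tested genes. There, 0 complex IV genes were called in 500 v 60 min. The sign turned for cox-5B −0.15 (500 v 60 min), cyc-1 0.00602 (330 v 270 min), atp-5 −0.029 and cyc-1 −0.0079 (410 v 330 min) and cox-4 −0.048 (500 v 410 min). With a filter of 10 CPM in 3 libraries, 2 (120 v 60 min) of the 10 genes were called, beside 3758 of 10004 tested genes. Signs changed there for cox-5B −0.0297 (500 v 60 min), atp-4 −0.0085 (270 v 225 min) and cox-5B −0.0088 (330 v 270 min). With DESeq2, 4 (120 v 60 min), 3 (410 v 330 min) and 2 (500 v 410 min) of the 10 genes were called. It called 3518, 2361 and 1740 of 10047 tested genes in these comparisons. There, 1 complex II gene was called in 500 v 60 min. A changed sign was found for atp-2 0.00599 (500 v 60 min), cox-5B −0.018 (120 v 60 min) and cyc-1 0.022 (330 v 270 min). From the libraries of the 2 stages alone, 3 (120 v 60 min) and 0 (410 v 330 min) of the 10 genes were called. These fits called 3474 of 5584 and 1893 of 5957 tested genes. The sign turned for atp-2 0.016 (500 v 60 min), cox-5B −0.013 (330 v 270 min) and cox-4 −0.065 (500 v 410 min). After collision correction, 5 (500 v 60 min), 3 (120 v 60 min), 0 (410 v 330 min) and 2 (500 v 410 min) of the 10 genes were called. The corrected fit called 6647, 3675, 2481 and 1883 of 8340 tested genes. There, 3 complex IV genes were called in 500 v 60 min. Signs changed there for cox-5B −0.14 (500 v 60 min) and atp-2 0.0605 (500 v 410 min). With genes over 500 counts left out (5 of the 10 remaining), 5 (8 stages), 2 (180 v 120 min), 0 (410 v 330 min), 5 (225 v 60 min) and 5 (500 v 225 min) of the 10 genes were called. Of the 7618 genes then tested, 6973, 1284, 2224, 4185 and 4978 were called. There, 1 mitochondrial genome gene was called in 500 v 60 min, the 1 of 12 left to test. A changed sign was found for cox-5B −0.006 (500 v 60 min). Without the 4 libraries with most vitellogenin, 1 (120 v 60 min) and 2 (180 v 120 min) of the 10 genes were called, beside 3169 and 1292 of 8679 tested genes. There, 1 complex II gene was called in 500 v 60 min. The sign turned for atp-2 0.0027 (500 v 60 min), cox-5B −0.066 (120 v 60 min) and atp-1 −0.20, atp-2 −0.059, atp-3 −0.094, cox-5B −0.16 and cox-4 −0.17 (330 v 270 min).

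Replicate numbers were not taken as pairs, since no methods text in the sources at hand names a block. Deviations of same-numbered libraries correlated above 0.1 in 17, 14 and 2 of 28 pairs for replicates 1, 2 and 3. Whether an effect is shared by replicate number was not tested. A block raised the calls over all tested genes in every comparison, as from 467 to 639 (225 v 180 min). With the number as a replicate block, 3 (120 v 60 min), 3 (410 v 330 min) and 2 (500 v 410 min) of the 10 genes were called, and no other count moved by over 1.5 times. In these comparisons 3923, 2912 and 2123 of 8279 tested genes were called. The block turned atp-1 into a call at 500 v 60 min (0.39, adjusted p = 0.0319), giving 4 called genes, 3 of them higher, and at 225 v 60 min (−0.67, adjusted p = 0.000854).

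With 1 replicate number or 1 library left out, counts ranged over 6 to 13 (complex I), 1 to 2 (complex II), 4 to 7 (complex III), 0 to 1 (complex IV), 6 to 11 (mitochondrial genome), 18 to 30 (nuclear subunits, 500 v 60 min), 0 to 3 (the 10 genes, 120 v 60 min), 24 to 42 (nuclear subunits, 120 v 60 min), 0 to 3 (the 10 genes, 180 v 120 min), 0 to 1 (the 10 genes, 410 v 330 min) and 0 to 1 (the 10 genes, 500 v 410 min). Calls over all tested genes ranged over 5895 to 7086 (500 v 60 min), 2309 to 3624 (120 v 60 min) and 655 to 1432 (180 v 120 min). For the last 2 steps they ranged over 1289 to 2538 (410 v 330 min) and 1045 to 2065 (500 v 410 min). Signs varied for atp-2 −0.29 to 0.057 (500 v 60 min), cox-5B −0.14 to 0.26 (500 v 60 min), cox-5B −0.063 to 0.16 (120 v 60 min), isp-1 −0.23 to 0.0801 (180 v 120 min), atp-2 −0.073 to 0.15 (270 v 225 min), atp-4 −0.068 to 0.14 (270 v 225 min), cox-4 −0.051 to 0.21 (270 v 225 min), atp-1 −0.15 to 0.28 (330 v 270 min), atp-3 −0.0698 to 0.13 (330 v 270 min), cox-5B −0.14 to 0.12 (330 v 270 min), cox-4 −0.22 to 0.24 (330 v 270 min), isp-1 −0.10 to 0.28 (330 v 270 min), cyc-1 −0.11 to 0.021 (330 v 270 min), cyc-1 −0.019 to 0.27 (410 v 330 min) and cox-4 −0.028 to 0.14 (500 v 410 min).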
